A study of Homo sapiens with 6 samples.

Results

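Polyamine synthesis and breakdown was followed through 10 genes in MDA-MB-231 cells, a human basal-like breast cancer line, treated with S-adenosylmethionine (SAM) or left as Control. The genes were taken from a list of names, and all 10 had exactly 1 transcript cluster, the set of array probes that reports 1 transcript region, among the 53617 on the Affymetrix Human Gene 2.0 ST array. A total of 3 arrays carried RNA from cultures given 200 μM SAM, added to the growth medium every other day until harvest, and 3 carried RNA from Control cultures. Both groups were the same cell line in the same medium with serum. The sample records describe the Control cells as untreated, whereas the methods speak of vehicle, and the array RNA came from independent experiments. Each value is a log2 signal, so that 1 unit is a 2-fold difference in brightness.

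Polyamines are small, positively charged molecules, putrescine, spermidine and spermine, which bind nucleic acids and are needed for growth. Ornithine decarboxylase (ODC1) makes putrescine, and AMD1 decarboxylates SAM into the donor of the aminopropyl groups that spermidine synthase (SRM) and spermine synthase (SMS) add to it. In this way SAM, best known as the donor of methyl groups, is also a building block of polyamines. Antizymes (OAZ1, OAZ2) bind ODC1 and send it to the proteasome, and the antizyme inhibitor AZIN1 holds them back. SAT1 acetylates spermidine and spermine, PAOX oxidises the acetylated forms and SMOX oxidises spermine itself. Several of these genes are controlled after transcription, at steps that an RNA array does not measure.

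Sequence elements of 3 synthesis genes are shown as places where control could act, before or after the RNA that the array reads. The E-boxes were found by matching letters alone. The first 2 are stretches from the start regions of SRM and ODC1 that hold the E-box of MYC and related factors in capitals, and the third is a short reading frame ahead of the AMD1 coding region, with its start and stop codons in capitals. All are from RefSeq on GRCh38.p14, 5′ to 3′ along the gene.
SRM, chr1:11060192-11060237, minus strand: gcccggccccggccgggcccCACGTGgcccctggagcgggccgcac
ODC1, chr2:10448002-10448061, minus strand: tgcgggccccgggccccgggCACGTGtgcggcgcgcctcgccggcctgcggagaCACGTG
AMD1, chr6:110874796-110874816, plus strand: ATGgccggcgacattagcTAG

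The E-box CACGTG reads the same on both strands. Windows of 300 bases around annotated gene starts were at hand for 7 of the 10 members (10 windows), and the motif lay in those of SRM and ODC1. It was found for 8.77% of the 27305 genes with such windows, and in 7.26% of all 35116 windows. Counted from the annotated start, the SRM copy begins at position -199. Both ODC1 copies lie at the inner of its annotated starts, at positions -29 and 5, and none is in the window of the outer start. The AMD1 reading frame has 6 codons and a stop, and lies at positions 11 to 31 from one of the annotated starts. In mammalian cells it is known to hold back translation of AMD1 when polyamines are plentiful. A matching stretch of letters is a description and does not show that a factor was bound in these cells.

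None (0) of the 10 polyamine genes passed both thresholds of the comparison of SAM with Control, an unadjusted P under 0.01 and a change of over 1.5-fold. AMD1 and SRM had the largest positive differences, at 1.21-fold and 1.28-fold, and SAT1 and AZIN1 the most negative ones, at 0.812-fold and 0.814-fold. AMD1 was brighter in all 3 SAM arrays than in any Control array, SMS was dimmer in all 3, and the other 8 overlapped. Over the whole array, 1.09% of transcript clusters passed both thresholds and 15.1% had groups that did not overlap. Of the 16098 transcript clusters with a gene symbol, 111 passed both thresholds and 18.4% had groups that did not overlap. None (0) of the 10 had an unadjusted P under 0.05 in limma, against 7.99% of all transcript clusters, and their adjusted p lay between 0.632 and 0.985. After adjustment over the whole array, limma called 0 transcript clusters at 0.05, the lowest adjusted p being 0.245. The arrays read RNA from whole cultures, where fewer cells with a transcript and less of it in each cell cannot be told apart. The plot of the 10 genes by array shows these values.

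**Figure D1:**
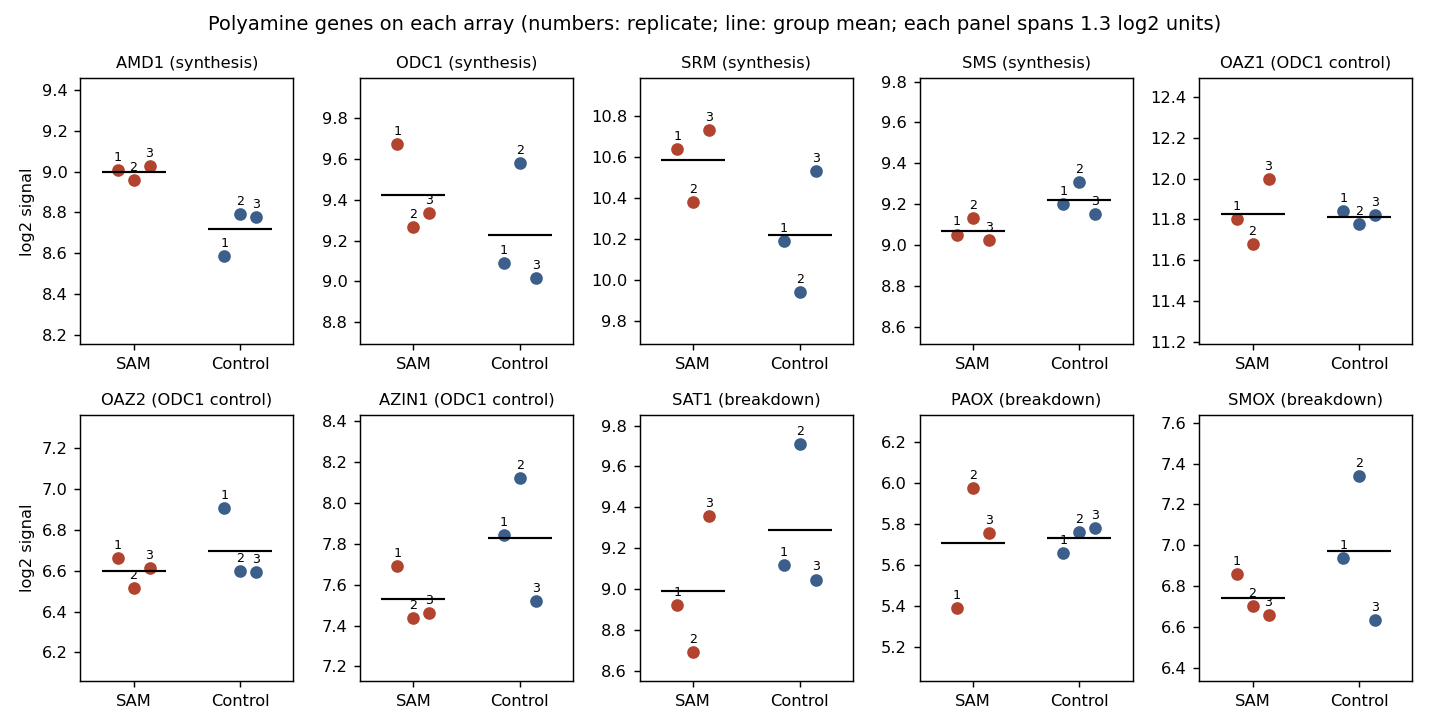
Log2 signal of each of the 10 polyamine genes in the 3 SAM arrays (left of each panel) and the 3 Control arrays (right), with replicate numbers beside the points and a line at each group mean. AMD1 is higher in all 3 SAM arrays and SMS is lower in all 3, while the points of the other 8 genes overlap.

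The enzymes of synthesis showed 3 positive differences and 1 negative one, with a median log2 fold change of 0.24. AMD1, the decarboxylase that commits SAM to this pathway, had log2 signals of 9.01, 8.96 and 9.03 in SAM arrays 1 to 3, against 8.59, 8.79 and 8.78 in Control arrays 1 to 3. The groups did not overlap, and the SD was 0.0349 over the SAM arrays and 0.115 over the Control arrays. The log2 fold change was 0.28 (SE 0.12, 95% interval -0.01 to 0.57, adjusted p = 0.632 from limma), with an unadjusted P of 0.0542 from limma across all transcript clusters. That interval ends just below the 1.5-fold mark, a log2 fold change of 0.585. In the exact permutation test over the 6 arrays, two-sided, AMD1 and SMS both had p = 0.1, the smallest p that 3 arrays against 3 allow.

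SRM, which joins an aminopropyl group to putrescine, gave log2 signals of 10.64, 10.38 and 10.73 in the SAM arrays, against 10.19, 9.94 and 10.53 in the Control arrays. Control array 3 was brighter than SAM array 2, so the groups overlapped. Its log2 fold change of 0.36 (SE 0.18, 95% interval -0.07 to 0.79, adjusted p = 0.661 from limma) was the largest of the 10. Without Control array 3 it was 0.52, and without Control array 2, the dimmest, it was 0.22.

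ODC1, the first enzyme of the pathway, had log2 signals of 9.67, 9.26 and 9.33 in the SAM arrays, against 9.09, 9.58 and 9.02 in the Control arrays. SAM array 1 and Control array 2 stood above the other 4 arrays. The log2 fold change was 0.19 (SE 0.19, 95% interval -0.26 to 0.64, adjusted p = 0.794 from limma), and the spread within groups was larger than this difference. It was 0.37 without Control array 2 and 0.07 without SAM array 1.

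SMS, which makes spermine from spermidine, went the other way. Its log2 signals were 9.05, 9.13 and 9.02 in the SAM arrays, against 9.20, 9.31 and 9.15 in the Control arrays. SAM array 2 and Control array 3 were separated by only a narrow gap, and after repeated quantile normalization the groups of SMS overlapped. The log2 fold change was -0.15 (SE 0.12, 95% interval -0.43 to 0.13, adjusted p = 0.744 from limma), with the smallest residual SD of the 10 genes, 0.0686.

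Of the 3 genes that control ODC1 protein, the antizymes OAZ1 and OAZ2 had smaller differences between SAM and Control than AZIN1. OAZ1, the main antizyme, had log2 signals of 11.80, 11.68 and 12.00 in the SAM arrays, against 11.84, 11.78 and 11.82 in the Control arrays. The 3 Control arrays fell inside the range of the SAM arrays. Its log2 fold change was 0.01 (SE 0.13, 95% interval -0.30 to 0.32), a sign that turned when each array was centred on its median (-0.03), without SAM array 3 (-0.08) and without Control array 2 (-0.003). OAZ2, a second antizyme, had log2 signals of 6.66, 6.52 and 6.61 in the SAM arrays, against 6.90, 6.60 and 6.59 in the Control arrays. Only Control array 1 lay above the SAM arrays, and without it the log2 fold change of -0.10 (SE 0.14, 95% interval -0.42 to 0.22) was 0.003.

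AZIN1, a relative of ODC1 that lacks its enzyme activity and binds antizyme in its place, was lower on average in SAM-treated cells. Log2 signals were 7.69, 7.44 and 7.46 in the SAM arrays, against 7.84, 8.12 and 7.52 in the Control arrays. The groups overlapped because Control array 3 lay among the SAM arrays. The log2 fold change was -0.30 (SE 0.18, 95% interval -0.71 to 0.12, adjusted p = 0.691 from limma), and it was -0.15 without Control array 2 and -0.45 without Control array 3.

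The 3 genes of breakdown all had a negative log2 fold change, and none (0) of them had groups that did not overlap. SAT1, the acetyltransferase that starts breakdown and export, had log2 signals of 8.92, 8.69 and 9.36 in the SAM arrays, against 9.12, 9.71 and 9.05 in the Control arrays. SAM array 3 and Control array 2 were the highest of their groups, and SAT1 had the largest residual SD of the 10 genes, 0.35. This gave a log2 fold change of -0.30 (SE 0.24, 95% interval -0.85 to 0.25, adjusted p = 0.742 from limma). It was -0.09 without Control array 2 and -0.48 without SAM array 3. The annotation names this transcript cluster by a SAT1 transcript that RefSeq lists as not coding for protein, and the array value does not separate it from the coding one.

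SMOX, the oxidase that turns spermine back into spermidine, had log2 signals of 6.86, 6.70 and 6.66 in the SAM arrays, against 6.94, 7.34 and 6.63 in the Control arrays. Control array 2 stood well above the other 5 arrays. The log2 fold change of -0.23 (SE 0.19, 95% interval -0.68 to 0.22, adjusted p = 0.756 from limma) was -0.04 without that array. PAOX, the oxidase of acetylated polyamines, had log2 signals of 5.39, 5.98 and 5.75 in the SAM arrays, against 5.66, 5.76 and 5.78 in the Control arrays. Its Control arrays fell inside the range of its SAM arrays, and its log2 fold change was -0.03 (SE 0.17, 95% interval -0.42 to 0.37), but 0.13 without SAM array 1.

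Of the 10 log2 fold changes, 4 were positive and 6 negative, with a median of -0.06. Over all transcript clusters 50.6% were negative and the median was near 0 (-0.003). For 5 of the 10 genes, AMD1, SMS, OAZ1, OAZ2 and PAOX, the whole 95% interval lay within a 1.5-fold change in either direction. The same held for 29387 of all 53617 transcript clusters, and for 10457 of the 16098 with a gene symbol. For the other 5 members, ODC1, SRM, AZIN1, SAT1 and SMOX, the interval reached past that mark on one side. A change of that size thus lay within the error of 3 arrays in each group. The residual SD had a median of 0.225 over the 10 genes and 0.204 over all transcript clusters.

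**Figure D2:**
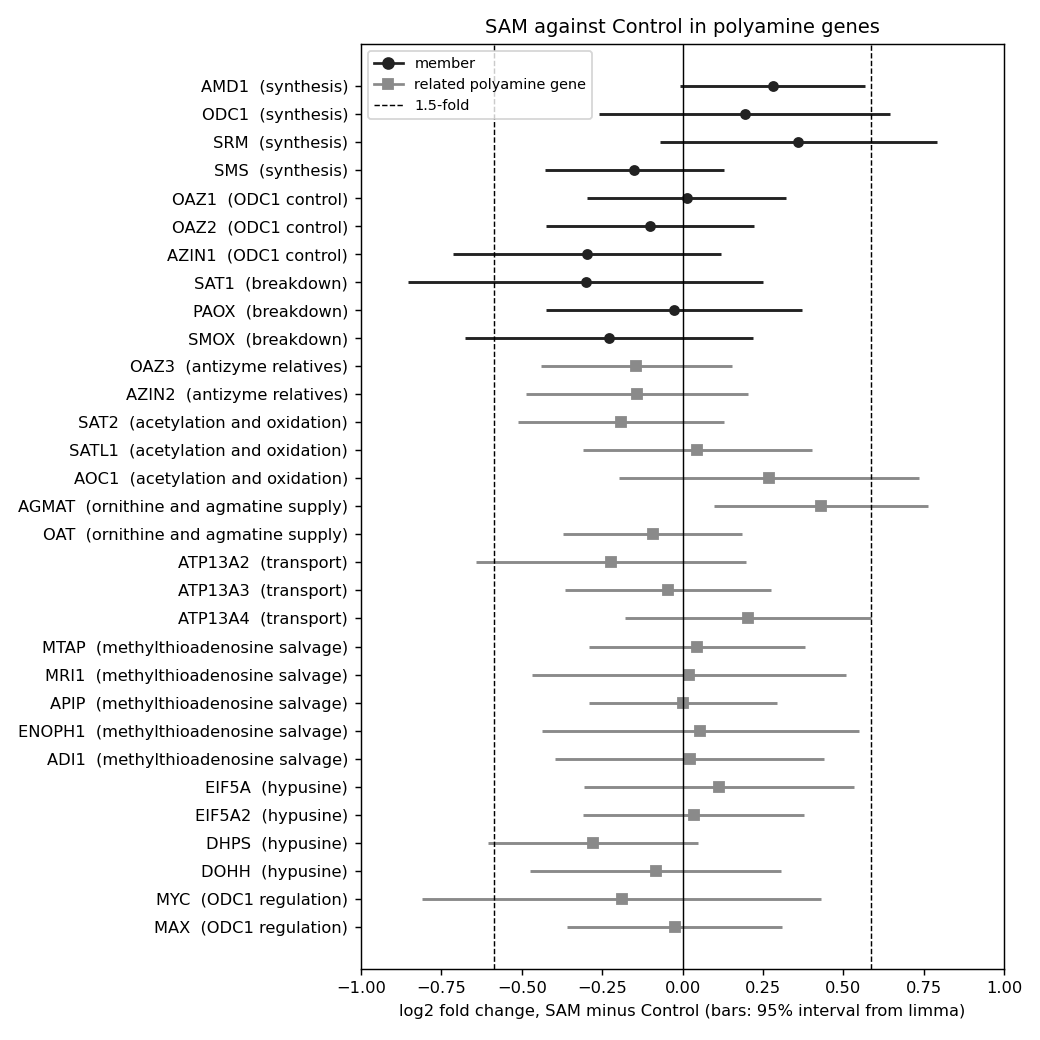
Log2 fold change of SAM against Control (horizontal axis) with its 95% interval from limma for the 10 polyamine genes (black circles) and 21 related genes (grey squares), with dashed lines at 1.5-fold. The interval crosses 0 for all 10 polyamine genes, and among the related genes it misses 0 only for AGMAT.

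The brightest and dimmest array of each group were counted over the polyamine genes. SAM array 2 was the dimmest SAM array for 7 of the 10, and Control array 3 the dimmest Control array for 6. Among the 21 related genes measured, each of these counts was 8. Such counts were not made over all transcript clusters, so they are descriptions only. Control array 2 was the brightest Control array for AMD1, ODC1, SMS, AZIN1, SAT1 and SMOX, 6 of the 10, and for 7 of the 21 related genes. ODC1, AZIN1, SAT1 and SMOX lay 0.35, 0.29, 0.42 and 0.37 above their Control means there. MYC, a transcription factor known to activate ODC1, had a log2 signal of 9.53 in this array, against 8.46 and 8.71 in Control arrays 1 and 3. In the SAM arrays it had 8.68, 8.86 and 8.60. SRM, the other gene with an E-box, was dimmest of the Control arrays in Control array 2, at -0.28 from its Control mean. ODC1 was brightest of all in SAM array 1 (0.44), where MYC lay at -0.22 from its Control mean. A link of these genes with MYC was not tested. Of 6 proliferation genes (MKI67, TOP2A, PCNA, MCM2, CCNB1 and CDK1), all 6 were lowest of the Control arrays in Control array 2, with a mean deviation of -0.406 from their Control means. The same mean was 0.0706, -0.0828 and 0.188 in SAM arrays 1 to 3, against 0.256 and 0.15 in Control arrays 1 and 3. Among the SAM arrays, 5 of the 6 proliferation genes were lowest in SAM array 2. The part that the state of Control array 2 has in the differences of the polyamine genes was not tested. Without it the log2 fold change was 0.32 for AMD1, -0.11 for SMS, -0.15 for OAZ2 and -0.01 for PAOX, and the values for the other 6 genes stand beside them above. With this array left out, 3 members had groups that did not overlap (AMD1 and ODC1 higher, SMS lower), beside 27.6% of all transcript clusters. With Control array 3 left out there were 5 (AMD1 and SRM higher, SMS, AZIN1 and SMOX lower), beside 25.3%.

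**Figure D3:**
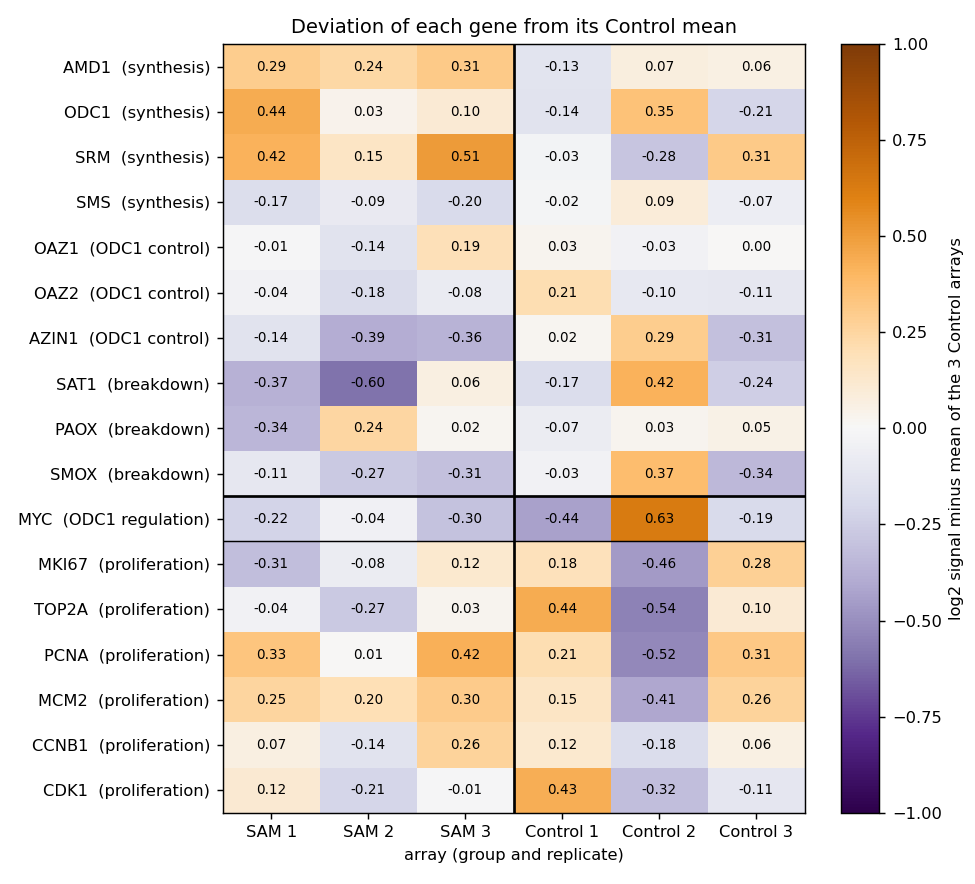
Log2 signal of each gene minus its mean over the 3 Control arrays (colour and printed number) for 10 polyamine genes, MYC and 6 proliferation genes in rows, and the SAM and Control arrays in columns. In Control 2, ODC1, AZIN1, SAT1, SMOX and MYC are above their Control means (0.29 to 0.63), while SRM (-0.28) and all 6 proliferation genes are below.

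With each array left out in turn, only the size of the differences of AMD1 and SMS could vary, since their groups do not overlap with all 6 arrays. For AMD1 the log2 fold change ran between 0.21 (without Control array 1) and 0.32 (without Control array 2), and for SMS between -0.18 and -0.11. ODC1 and SRM remained positive and AZIN1, SAT1 and SMOX negative in all 6 such fits, with wider ranges. None (0) of the 10 genes passed both thresholds in any of them.

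**Figure D4:**
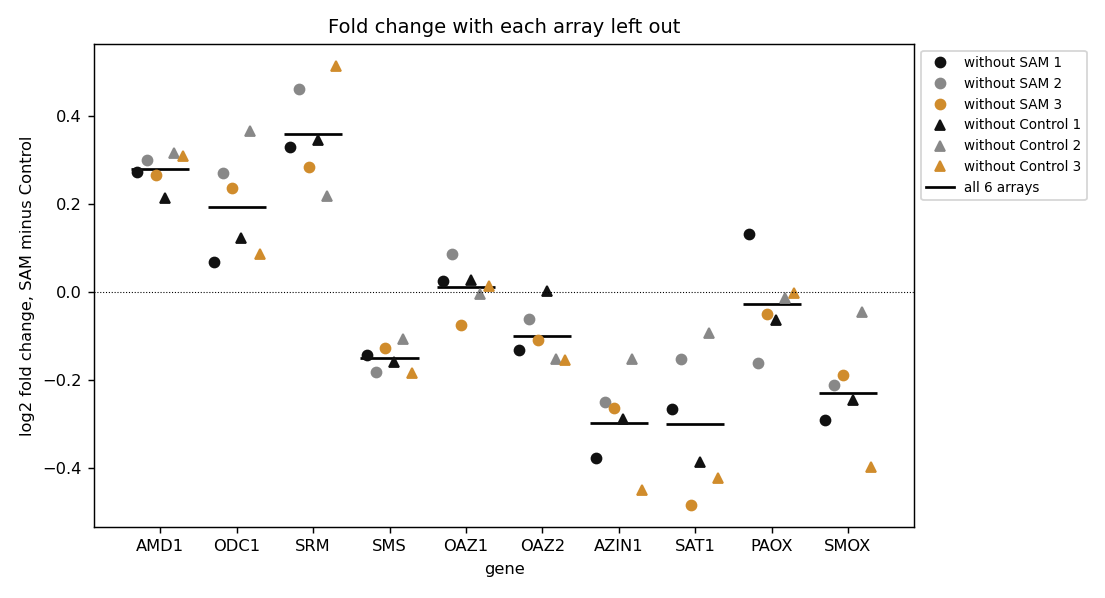
Log2 fold change of SAM against Control for each gene with all 6 arrays (line) and with each array left out in turn (circles for a SAM array, triangles for a Control array, coloured by replicate). AMD1 stays between 0.21 and 0.32, while SMOX runs between -0.40 and -0.04.

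The mean of the synthesis genes, taken as deviations from each gene's Control mean, was 0.245, 0.0852 and 0.181 in SAM arrays 1 to 3, against -0.0795, 0.0572 and 0.0222 in Control arrays 1 to 3. For the breakdown genes the same mean was -0.275, -0.207 and -0.0755 in the SAM arrays, against -0.0934, 0.271 and -0.177 in the Control arrays. The synthesis means did not overlap between the groups, with SAM array 2 only narrowly above Control array 2, and the breakdown means overlapped. The median signals of SAM array 2 and Control array 2, 4.849 and 4.819, differed by about as much as that gap. The separation thus hangs on how the arrays are scaled. How often other sets of genes separate in this way was not counted. Both means are descriptions of genes whose own tests did not pass, and SMS went against the other synthesis genes.

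Among genes that feed, move or use polyamines, the largest difference was in AGMAT, which encodes an enzyme of the agmatinase family that is named for making putrescine from agmatine. Of 30 related genes, 21 had a named transcript cluster, and none (0) passed both thresholds in either direction. AGMAT had log2 signals of 5.85, 6.03 and 6.18 in the SAM arrays, against 5.55, 5.47 and 5.74 in the Control arrays. The groups did not overlap, and the log2 fold change was 0.43 (SE 0.14, 95% interval 0.10 to 0.76, adjusted p = 0.578 from limma). It was the only one of the 21 with an unadjusted P under 0.05 in limma, where 7.99% of all transcript clusters had one. OAT, the mitochondrial aminotransferase of ornithine, differed by -0.09 on the log2 scale (SE 0.12).

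Spermidine is also the substrate for hypusine, a modified lysine of the translation factor eIF5A. DHPS, which makes the first step of this modification, had log2 signals of 7.82, 7.90 and 7.81 in the SAM arrays, against 8.11, 8.32 and 7.93 in the Control arrays. The SAM arrays all lay below the Control arrays, by a log2 fold change of -0.28 (SE 0.14, 95% interval -0.60 to 0.05, adjusted p = 0.656 from limma). EIF5A, the gene of the modified protein, differed by 0.11 on the log2 scale (SE 0.18). The 4 hypusine genes measured split into 2 positive and 2 negative differences.

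The making of spermidine and spermine releases methylthioadenosine, which MTAP and the enzymes after it return to methionine. All 5 genes of this salvage route had log2 fold changes between 0.001 and 0.05. All 5 intervals lay within a 1.5-fold change, as did those of 29387 of all 53617 transcript clusters and 10457 of the 16098 with a gene symbol. MTAP, the phosphorylase that starts it, had a log2 fold change of 0.05 (SE 0.14), and ENOPH1, an enzyme further on, one of 0.05 (SE 0.21). MTAP was nearly dim, with a mean log2 signal of 4.9 beside 4.81, the median of all transcript clusters. At that level a small difference says little about its RNA. The differences of the 5 genes were the smallest of any group of related genes.

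OAZ3, an antizyme known from the testis, and AZIN2, a second antizyme inhibitor, both had a log2 fold change of -0.14 (SE 0.13 for OAZ3 and 0.15 for AZIN2). Among further genes of acetylation and oxidation, SAT2, a relative of SAT1, had -0.19 (SE 0.14) and AOC1, a diamine oxidase, 0.27 (SE 0.20). Of the transporter genes only 3 of 10 were named on the array, with ATP13A2, the lysosomal exporter of polyamines, at -0.22 (SE 0.18) and ATP13A4 at 0.20 (SE 0.16). MYC itself differed by -0.19 on the log2 scale (SE 0.27), and its partner MAX by -0.02 (SE 0.14). OAZ3, AOC1 and ATP13A4 were dim, with a mean under 4.81, the median of all transcript clusters.

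As a description of likeness over the 6 arrays, the transcript clusters with a gene symbol that followed ODC1 most closely were those of PLEK, CFL2 and MIR4505, with Pearson's r of 0.996, 0.99 and 0.989. For AMD1 they were AIF1L, PTH2R and CD177, with r of 0.993, 0.989 and 0.983. Each trio is the top of 16097 candidates compared over only 6 arrays.

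The arrays were close in their overall level, with a median log2 signal of 4.827 to 4.849 in the SAM arrays and 4.754 to 4.825 in the Control arrays. Every SAM median lay slightly above every Control median. Control array 1 had the lowest median and the lowest mean correlation with the other arrays, 0.9642. Of the markers listed for this cell line, 4 of 6 were named on the array, with mean log2 signals of 7.9 to 11.5. Those of luminal epithelium (5 of 6) ran from 4.12 to 6.54, of endothelium (3 of 4) from 4.85 to 5.72 and of fibroblasts (2 of 4) from 2.78 to 3.63, and the only leukocyte marker of 5, CD14, averaged 6.47. Brightness differs between probe sets, so these ranges are a rough check of the label.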

How the data were processed

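RNA from 3 SAM-treated and 3 Control cultures of MDA-MB-231 cells was hybridised to Affymetrix Human Gene 2.0 ST arrays, 1 per culture. The authors deposited log2 signals made with RMA in the Bioconductor package oligo (which corrects background, sets all arrays to the same quantiles and condenses probes to transcript clusters), whose version is not given in the sources used here. No filter was applied to the 53617 transcript clusters. The platform annotation gave 1 gene symbol for 16098 of them, several for 0 and none for 37519. Genes without a symbol could not be followed by name. Their transcript clusters stayed in the fit, the adjustment and the shares over all transcript clusters. For genes with several transcript clusters the one with the highest mean of the 6 arrays was used.

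SAM was compared with Control in limma 3.58.1 (R 4.3.3; lmFit, then eBayes) without a covariate or block, with Benjamini-Hochberg adjustment across the whole array. The thresholds (unadjusted P under 0.01, change over 1.5-fold) follow the methods. The 582 transcript clusters that passed them here were more than the mRNAs that the paper reports as altered at these thresholds. Precision is limited by having only 3 arrays per group. The procedure was tested on simulated data. The text names all 10 members, of each group of related genes the 2 with the smallest P, and the 3 transcript clusters most like ODC1 and AMD1. The members and lists were chosen with earlier results of these data known. Sequences and positions come from RefSeq (GRCh38.p14). Alternatives were a filter on dim transcript clusters, named transcript clusters alone, repeated quantile normalization, median centring, a trended and robust eBayes, a t-test, a replicate block, other thresholds, averaged transcript clusters and leaving out each array.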

Additional observations from a re-analysis of the deposited data

How the results depend on the processing

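No member and no related gene passed both thresholds under any of the 17 alternatives, and the median log2 fold change over the 10 members stayed negative (-0.107 to -0.0294). AMD1, ODC1 and SRM stayed positive and SMS, AZIN1, SAT1 and SMOX negative throughout. The sign of OAZ1 turned to -0.0261 with each array centred on its median. With each array left out in turn, OAZ1 ran from -0.0753 to 0.0869, OAZ2 from -0.154 to 0.00331 and PAOX from -0.162 to 0.132. The unadjusted P of AMD1 lay between 0.0157 (two-tailed t-test) and 0.13 (without SAM replicate 3), and its adjusted p was 0.425 or above throughout. The count of members whose groups did not overlap was 1 after repeated quantile normalization, where SMS overlapped, and 2 to 5 with an array left out, where 23.3% to 27.6% of all transcript clusters did not overlap, against 15.1% with all arrays. The count of all transcript clusters past both thresholds, 582, was 359 without the dimmer ones and 165 with named ones alone. Both come from limma fitted again on the kept transcript clusters, and in the main fit 111 of the 582 had a gene symbol. The count was 188 by the two-tailed t-test, 921 without a fold change minimum, 143 with a minimum of 2-fold and 1347 at P under 0.05. With an array left out it was 463 to 934 (934 without Control replicate 2).

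Whether the replicate numbers mark pairs could not be settled from these values, with only 3 arrays in each group. The paper speaks of independent sets of RNA from both groups, and the sample records give no pairing beyond the numbers. For the same-numbered arrays 1, 2 and 3, the correlations of deviations from the group means were -0.00267, -0.0748 and 0.109. Only the arrays numbered 3 correlated best with their own number. The highest correlation, 0.112, was between SAM array 2 and Control array 1. With a replicate block, 659 transcript clusters passed both thresholds and 0 members did. The P of SRM was 0.0429 with the block and 0.09 without it (adjusted p = 0.627 and 0.661 from limma).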
